A study of Mus musculus with 8 samples.

Results

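The genes described here are the heat shock chaperones of the cytosol and of mitochondria, with the co-chaperones that work with them. The members were chosen by gene symbol from a list of 39 genes in 10 classes: Hsp70, Hsp110, Hsp90, small heat shock proteins, J-proteins, mitochondrial chaperonin, heat shock factors, BAG co-chaperones, other Hsp70 and Hsp90 co-chaperones, and the subunits of the cytosolic chaperonin CCT. Of these, 36 genes had a probe on the array and together had 38 probes. The whole array named 19321 genes and held 23473 probes. Cryab and Dnajb6 had 2 probes each. No probe named for Hsp90ab1, Hsf1 or Tcp1 was found, so the constitutive Hsp90, the main heat shock transcription factor and the CCT alpha subunit are not described. All 38 member probes lay above the blank limit, the mean of the blank spots plus 2 SD, on all 8 arrays. All 38 were among the 21583 probes tested. Passing this limit does not show that a probe was far above the blanks. Hsf2 was the weakest, at 5.99 to 6.15 on the log2 scale over all arrays. A Dnajb6 probe at 6.16 to 6.43 and a Cryab probe at 6.21 to 6.34 were also weak. Small changes of such weak probes are therefore less certain.

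Chaperones bind unfolded or partly folded proteins and help them to fold, to stay soluble or to be handed on for degradation. Hsp70 takes up its clients from J-proteins, which speed its use of ATP, and releases them with the help of nucleotide exchange factors such as Hsp110 and the BAG proteins. Hsp90 then matures many kinases and hormone receptors with its own co-chaperones, while the ring-shaped chaperonins enclose their clients, CCT in the cytosol for actin and tubulin among others and Hsp60 with Hsp10 in mitochondria. When unfolded proteins build up, heat shock factor 1 forms trimers and binds heat shock elements, inverted repeats of the unit GAA, in the promoters of many of these genes. Neurons live long without dividing, and these proteins are much studied in diseases in which proteins aggregate.

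All mice were male C57Bl/6J, 9 weeks of age, with no genotype given beyond the strain, and were fasted for 6 hours before the tissue was taken. The control group drank water and was taken at day 0 (2 arrays), and the other groups were given trehalose, a disaccharide made of glucose units, for 1 day (3 arrays) or for 10 days (3 arrays). Water mice were taken at day 0 only, so the effects of trehalose and of time cannot be told apart. Neither a dose nor the caging of single mice is given in the labels, and p-values therefore measure only the spread between these samples, which may be technical. Total RNA of brain from perfused animals was hybridised to 1-colour arrays. The sample protocol names the cerebral cortex and neocortex, whereas the series' design text names a frozen hemisphere, so the dissected part is uncertain.

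Between 86.3% and 92.1% of the probes lay above the blank limit on each array, and the log2 intensities of any pair of arrays correlated at 0.9941 to 0.9977 across probes. All 8 probes for cortical excitatory neuron markers were above the limit on all arrays. Markers of other regions were also present: all 4 striatal probes and all 5 choroid plexus probes lay above the limit on all arrays, as did 6 of 7 thalamic probes. The summed thalamic marker level was 2217 to 2569 intensity units in the water arrays, 2712 to 3606 after 1 day and 2760 to 3093 after 10 days. The cortical excitatory sum was 2539 to 2609, 2387 to 2514 and 2327 to 2510 in the same order. The choroid plexus sum was 25677 to 30043 in water, 24576 to 33287 after 1 day and 30058 to 30070 after 10 days, and the microglial sum 3110 to 3126, 2840 to 3165 and 3004 to 3060. At 10 days the thalamic and choroid plexus sums were thus above water on all arrays, the latter only narrowly (30058 against 30043), and the cortical and microglial sums below. The thalamic sum was above and the cortical sum below water on all arrays at 1 day as well. Sums for interneuron, oligodendrocyte, astrocyte, endothelial and blood markers overlapped between water and 10 days. The striatal sum was 3482 to 4534 in water, 1693 to 4084 after 1 day and 3146 to 3725 after 10 days. Their part in the chaperone values was not tested. In RNA from whole tissue, fewer cells of a type and less RNA per cell cannot be told apart.

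The promoters of the members were examined for the heat shock element, because this is what the family's genes are known to share. RefSeq (GRCm38.p6) promoter entries covered 31 of the 39 genes, and the 250 bases before each start were searched for a pair of units, GAANNTTC or TTCNNGAA. Each of these motifs reads the same on both strands, and they overlap where 3 units stand in a row. At least 1 pair was found for 12 of the 31 genes (38.7%), against 14.5% of all 27025 genes with an entry. These were Hspd1, Hspe1, Dnajb6, Dnaja1, Dnajb4, Hspb1, Hsph1, Fkbp4, Cdc37, Cct2, Cct5 and Stub1. Rows of 3 units, GAANNTTCNNGAA or TTCNNGAANNTTC, were found for Hspd1, Hspe1 and Dnajb6 (9.68% of the genes), against 0.514% of all genes. Hspd1 and Hspe1 were matched through the same shared stretch, so the shares of 38.7% and 9.68% count it for both genes. No pair was found in the windows listed for Chordc1, Dnajb1 or Hspa4. Such a match describes the letters only and is not a measured binding site. The 4 stretches below are shown 5′ to 3′ on the strand given, with matched motifs in capitals. The stretch between Hspd1 and Hspe1 (chr1:55087933-55088147, plus strand) is shown because the pair, which encode Hsp60 and Hsp10, lie head to head and share it. That of Fkbp4 (chr6:128438657-128438906, minus strand) is shown as a gene with a motif that was higher in all 6 trehalose arrays. That of Hspb1 (chr5:135887669-135887918, plus strand) is shown as a gene with motifs and, with the main processing, nearly equal values on all arrays. That of Chordc1 (chr9:18292017-18292266, plus strand) is shown as the gene with the lowest p and no motif.
Hspd1-Hspe1: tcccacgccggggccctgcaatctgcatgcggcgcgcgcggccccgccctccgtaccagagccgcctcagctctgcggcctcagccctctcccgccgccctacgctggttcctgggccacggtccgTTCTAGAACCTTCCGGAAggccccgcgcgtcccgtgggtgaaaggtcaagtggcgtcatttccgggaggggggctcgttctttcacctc
Fkbp4: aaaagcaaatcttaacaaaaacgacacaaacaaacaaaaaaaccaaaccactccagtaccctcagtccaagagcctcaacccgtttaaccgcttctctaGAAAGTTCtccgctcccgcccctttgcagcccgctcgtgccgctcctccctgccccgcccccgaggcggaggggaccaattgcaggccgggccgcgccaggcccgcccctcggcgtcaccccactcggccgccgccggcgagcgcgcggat
Hspb1: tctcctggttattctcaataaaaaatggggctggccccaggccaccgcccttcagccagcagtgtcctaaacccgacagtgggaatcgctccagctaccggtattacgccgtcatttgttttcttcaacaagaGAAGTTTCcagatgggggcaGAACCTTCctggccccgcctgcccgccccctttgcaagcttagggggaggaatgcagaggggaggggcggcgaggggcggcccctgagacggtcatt
Chordc1: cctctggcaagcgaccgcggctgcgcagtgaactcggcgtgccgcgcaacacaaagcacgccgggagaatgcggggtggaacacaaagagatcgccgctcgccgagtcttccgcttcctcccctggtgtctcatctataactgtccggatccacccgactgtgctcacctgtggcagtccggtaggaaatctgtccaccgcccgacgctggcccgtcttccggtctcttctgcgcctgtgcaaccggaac

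**Figure D1:**
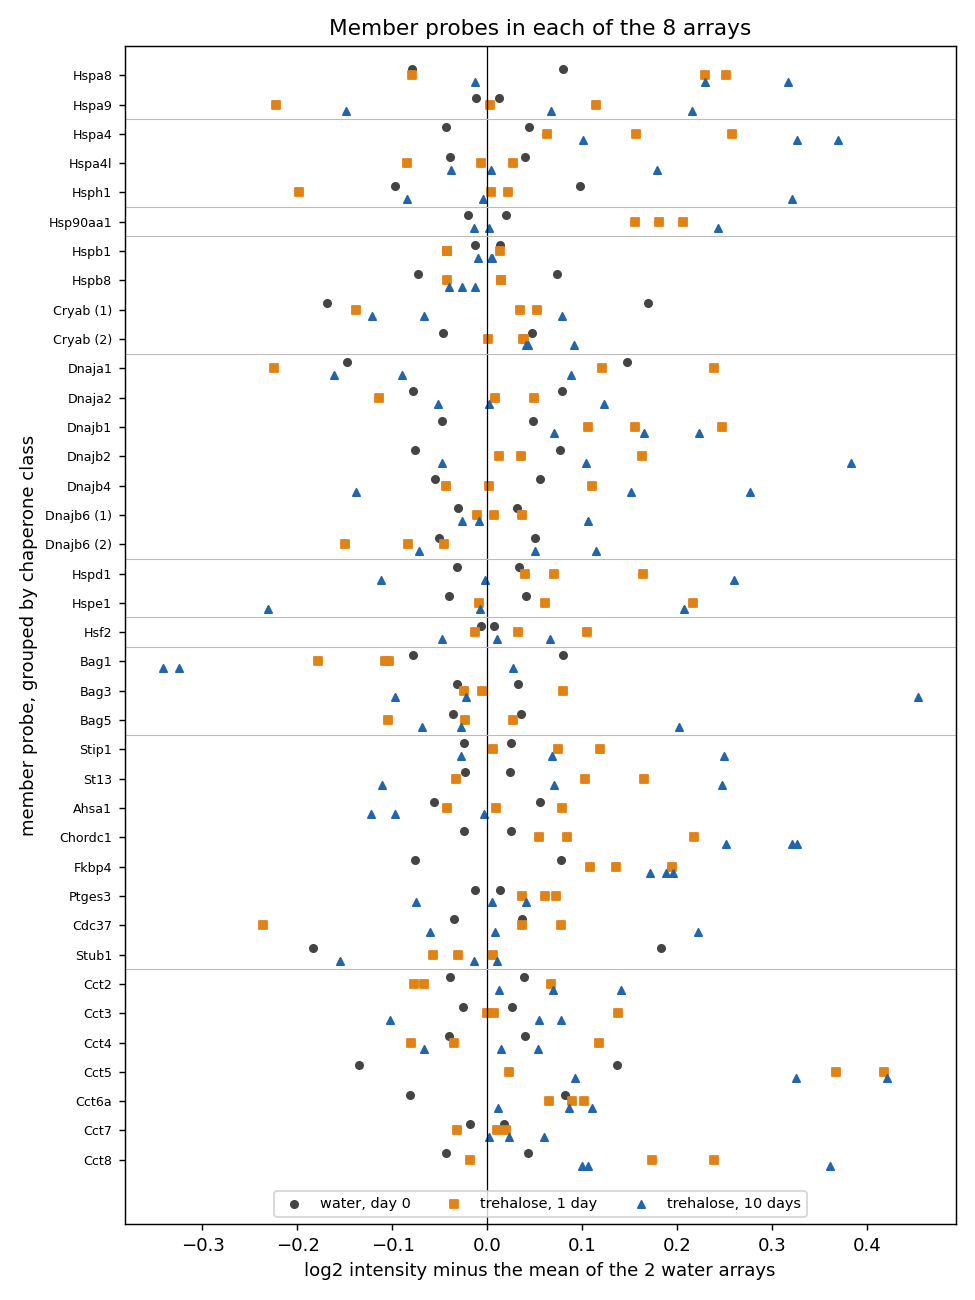
Log2 intensity of each of the 38 member probes in each of the 8 arrays, minus the mean of the 2 water arrays, with the classes divided by lines (circles, water; squares, 1 day; triangles, 10 days). Chordc1 and Fkbp4 have all 6 trehalose arrays to the right of both water arrays, while for most probes the groups overlap.

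With the main processing, the members were measured at nearly the same level in all groups. None of the 38 probes passed an adjusted p of 0.05 in any comparison (limma with Benjamini-Hochberg adjustment over all 21583 probes). The same was true of every other probe on the array, so the share called was 0% among all probes as well. The smallest adjusted p of a member was 1 in each group comparison. The comparisons of 1 day and of 10 days with water share the 2 water arrays, and their values are therefore given side by side without an overlap. With the main processing, the 95% interval lay within 1.25-fold in either direction for 26 of 38 probes at 1 day and for 26 at 10 days. It lay within 1.5-fold for 37 probes at each time, with Cct5 the probe beyond it at both times. These intervals do not cover the choice of processing, and the offset narrows them for the weak probes. With the local background subtracted, the change was -2.02 for Hspa8 at 1 day and -1.21 for Cct2 at 10 days. In the authors' deposited table the weaker Cryab probe changed by 0.228 at 10 days, in place of 0.0581. There a Dnajb6 probe was 0.486 higher at 10 days than at 1 day, in place of 0.124. The all-probe median for that comparison was 0.079.

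After 1 day of trehalose, 24 member probes were higher than in water and 14 lower. The share higher was 63.2%, against 49.7% of all probes, and the median log2 change was 0.0241, against -3e-04. At an unadjusted p of 0.05, 3 of 38 probes (7.89%) passed, against 3.65% of all probes: Fkbp4, Dnajb1 and Hsp90aa1, all higher. The groups did not overlap for 8 probes (21.1%, against 18.2% of all), of which Hspa4, Hsp90aa1, Dnajb1, Hspd1, Chordc1, Fkbp4 and Ptges3 were higher and Bag1 lower. In the authors' deposited table of normalized values the split at 1 day was 19 higher and 19 lower, where 33.6% of all probes were higher. Its all-probe median shift there was -0.05 on the log2 scale. With each array scaled to its median in place of quantile normalization, the split was 29 to 9. Leaving out control replicate 1 gave 20 to 18 (52.6% higher, against 49.5% of all probes), and leaving out control replicate 2 gave 29 to 9.

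After 10 days, 29 probes were higher than in water and 9 lower. The share higher was 76.3%, against 48.6% of all probes, and the median log2 change was 0.0478, against -0.00172. Of the 38 probes, 4 (10.5%) passed the unadjusted p of 0.05, against 2.00% of all: Chordc1, Fkbp4, Hspa4 and Dnajb1, all higher. The groups did not overlap for 5 probes, these 4 and Cct8 (13.2%, against 13.4% of all). In the authors' deposited table the split was 32 to 6, where 59.1% of all probes were higher. With the scanner's local background column subtracted it was 21 to 17. Leaving out control replicate 1 gave 25 to 13 (65.8% higher, against 48.1% of all probes), and leaving out control replicate 2 gave 32 to 6.

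Between the trehalose groups, 22 probes were higher at 10 days and 16 lower (57.9% higher, against 48.6% of all probes), with a median of 0.0264. Only Chordc1 passed the unadjusted p of 0.05, against 3.50% of all probes. Chordc1 and 1 Cryab probe did not overlap between these groups (5.26%, against 8.40% of all). In the authors' deposited table the split was 31 to 7, where 74.5% of all probes were higher. With the local background subtracted the median was -0.0681 and 15 probes were higher. With all 6 trehalose arrays against water, 30 probes were higher and 8 lower (78.9%, against 48.6% of all), with a median of 0.025. In that comparison 4 probes passed the unadjusted p of 0.05 (Chordc1, Fkbp4, Dnajb1 and Hspa4, against 2.63% of all), and the same 4 did not overlap (10.5%, against 4.73% of all). That median was 0.0689 without the control replicate 2 and 0.0718 with the local background subtracted. The split depended on single arrays. It was 23 to 15 without control replicate 1 (60.5%, against 48.5% of all) and 31 to 7 without control replicate 2 (81.6%, against 51% of all). Leaving out 10-day replicate 3 gave 24 to 14 (63.2%, against 48.8% of all).

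**Figure D2:**
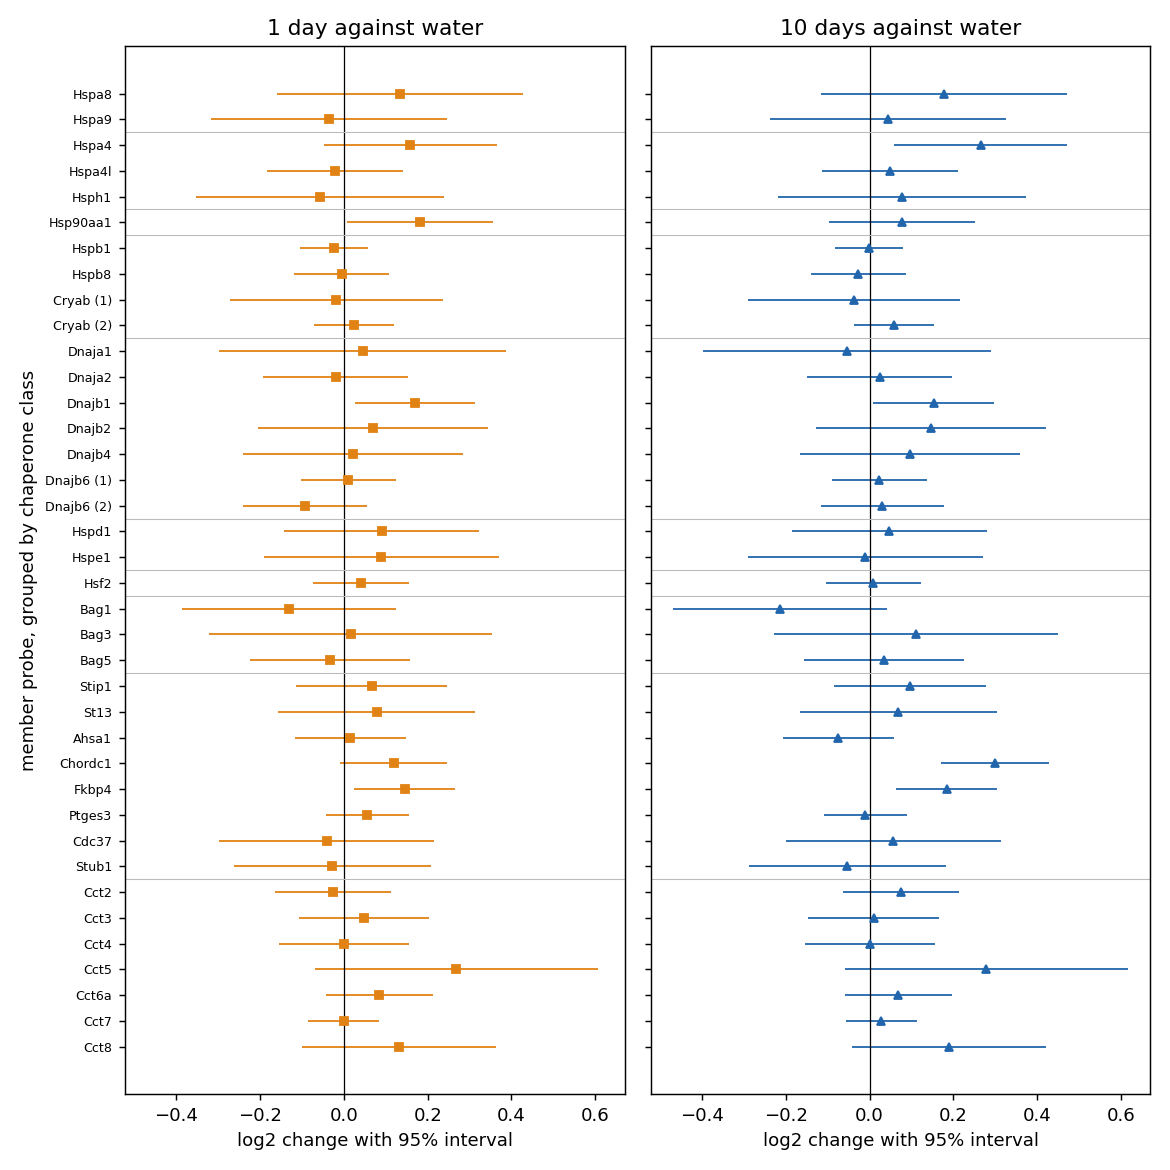
Log2 change of each of the 38 member probes against water with its 95% interval from limma, at 1 day (left) and at 10 days (right). The intervals of Fkbp4, Dnajb1 and Hsp90aa1 at 1 day and of Chordc1, Fkbp4, Hspa4 and Dnajb1 at 10 days leave out 0 before adjustment.

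Among the Hsp70 and Hsp110 genes, Hspa4, which encodes an Hsp110 that helps Hsp70 exchange its nucleotide, was higher in all 6 trehalose arrays. Its log2 intensity was 9.50 and 9.41 in water, 9.61, 9.71 and 9.51 after 1 day, and 9.82, 9.78 and 9.55 after 10 days. The lowest trehalose array stood just above the higher water array. The change was 0.16 ± 0.09 (SE) at 1 day and 0.27 ± 0.09 at 10 days, a 1.202-fold difference with an unadjusted p of 0.0184 and an adjusted p of 1 (limma, Benjamini-Hochberg).
Hspa8, the constitutive Hsp70 that carries much of the folding load in neurons, had values of 13.83 and 13.99 in water, 13.83, 14.14 and 14.16 at 1 day and 13.90, 14.23 and 14.14 at 10 days. Arrays at the low end occurred in every group, and the changes were 0.13 ± 0.13 and 0.18 ± 0.13 (SE). Without control replicate 1 they were 0.0549 and 0.0984. With the local background subtracted, the 1-day change of Hspa8 was -2.02. Hspa9, the mitochondrial Hsp70, gave 9.88 and 9.90 in water, 10.00, 9.89 and 9.67 at 1 day and 9.74, 10.11 and 9.96 at 10 days, with both trehalose groups reaching above and below the water arrays. Hsph1, the heat-inducible Hsp110, was measured at 9.05 and 9.25, then 9.17, 9.15 and 8.95, then 9.14, 9.06 and 9.47. Its highest value belonged to 10-day replicate 3, 0.223 above the next. Hspa4l, the remaining Hsp110 gene, differed from water by -0.02 and 0.05.

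Hsp90aa1, the stress-inducible cytosolic Hsp90, was 13.38 and 13.42 in water, 13.56, 13.58 and 13.61 after 1 day, and 13.65, 13.40 and 13.39 after 10 days. The 3 arrays of the 1-day group lay close together above water, whereas 2 of the 3 at 10 days were at the water level. The change was 0.18 ± 0.08 (SE, 1.134-fold, unadjusted p 0.0438, adjusted p 1 by limma) at 1 day and 0.08 ± 0.08 at 10 days. The difference between the trehalose groups was -0.10 ± 0.07, with an unadjusted p of 0.162. Without 10-day replicate 1 the 10-day change was -0.01, and with the local background subtracted it was 0.49.

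The small heat shock proteins hold unfolded clients in solution without ATP. Hspb1, or Hsp25, gave 8.07 and 8.04 in water, 8.01, 8.07 and 8.01 at 1 day, and 8.06, 8.06 and 8.04 at 10 days. The groups overlapped, and the 95% interval of its 10-day change ran from -0.08 to 0.08. Subtracting the local background gave Hspb1 changes of -0.196 at 1 day and -0.456 at 10 days. Cryab, or alpha B-crystallin, which is abundant in oligodendrocytes and astrocytes, had a probe at 9.34 and 9.00 in water, 9.20, 9.22 and 9.03 at 1 day and 9.25, 9.05 and 9.10 at 10 days, with the extremes in the water group. The changes of this probe were -0.541 at 1 day and -0.606 at 10 days with the local background subtracted. The other Cryab probe gave 6.30 and 6.21 in water, 6.29, 6.29 and 6.25 at 1 day and 6.34, 6.29 and 6.30 at 10 days, again with overlap between water and each trehalose group. Hspb8, the partner of Bag3 in selective autophagy, differed from water by 0.00 and -0.03. Of the 4 small heat shock probes, 3 were lower than water at each time, with a median of -0.0136 at 10 days, whereas with median scaling 3 were higher at 1 day and 2 at 10 days.

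The J-proteins bring clients to Hsp70, and 6 of the 7 probes were higher than water at 10 days and 5 at 1 day, but 3 at 1 day in the authors' deposited table. Dnajb1, the main Hsp40 partner of Hsp70 in breaking up aggregates, was 9.49 and 9.39 in water, 9.55, 9.60 and 9.69 at 1 day, and 9.66, 9.60 and 9.51 at 10 days. Each trehalose array was above both water arrays. The changes were 0.17 ± 0.06 (SE, 1.125-fold, unadjusted p 0.0263) and 0.15 ± 0.06 (1.112-fold, unadjusted p 0.0399), each with an adjusted p of 1 by limma. With the local background subtracted, the 1-day change of Dnajb1 was -0.0276.
Dnaja1, a farnesylated Hsp40 of the cytosol, spread widely within each group, at 10.99 and 11.29 in water, 10.92, 11.26 and 11.38 at 1 day, and 10.98, 11.05 and 11.23 at 10 days. All groups overlapped. At 10 days Dnaja2, Dnajb2 and Dnajb4 differed from water by 0.02, 0.15 and 0.10, and the Dnajb6 probes by 0.02 and 0.03. A Dnajb6 probe gave 6.26 and 6.36 in water, 6.23, 6.27 and 6.16 at 1 day and 6.24, 6.43 and 6.36 at 10 days. The water arrays overlapped both groups, and 10-day replicate 1 lay inside the 1-day range. Between the trehalose groups this probe was 0.12 ± 0.06 (SE) higher at 10 days, with an unadjusted p of 0.0624 and an adjusted p of 1 by limma.

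**Figure D3:**
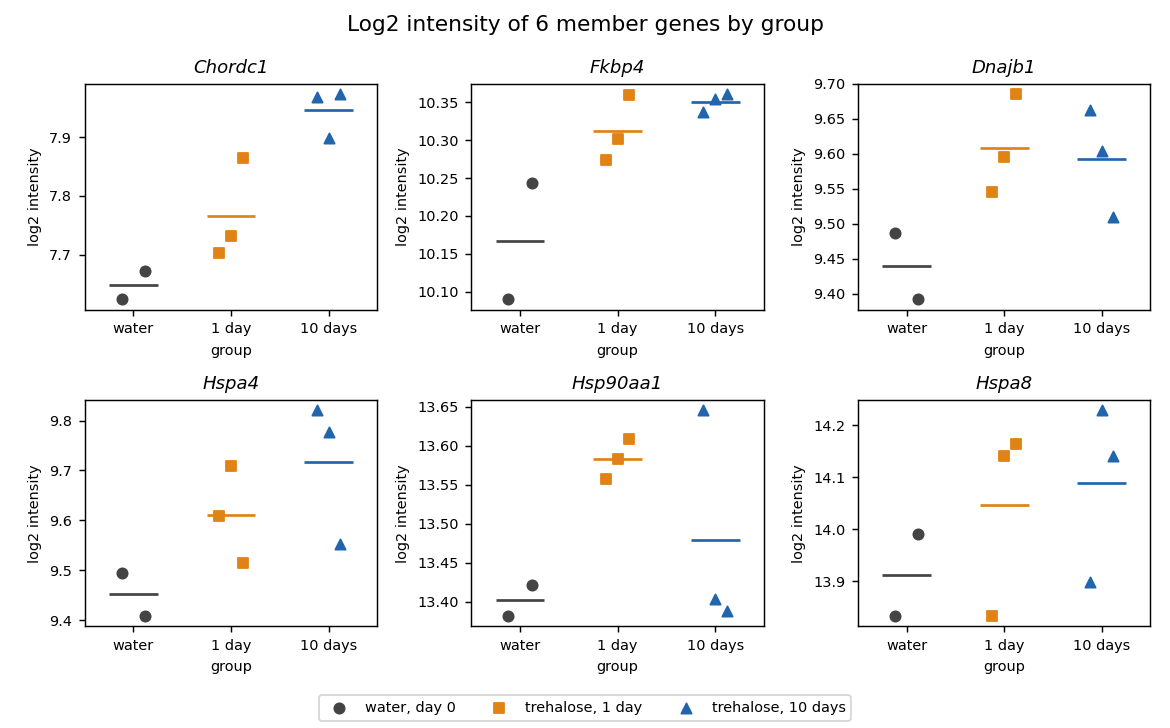
Log2 intensity of Chordc1, Fkbp4, Dnajb1, Hspa4, Hsp90aa1 and Hspa8 in each array by group, with a line at each group mean (each panel has its own axis, which does not start at 0). The 10-day arrays of Chordc1 lie above all others, and those of Hsp90aa1 divide into 1 high and 2 at the water level.

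Chordc1, which encodes the Hsp90 co-chaperone CHP-1, had the lowest unadjusted p of all members at 10 days. It was 7.62 and 7.67 in water, 7.70, 7.73 and 7.87 after 1 day, and 7.97, 7.90 and 7.97 after 10 days. Each 1-day array was above the water arrays and each 10-day array above the 1-day arrays. The 10-day change was 0.30 ± 0.06 (SE, 1.231-fold, 95% interval 0.17 to 0.43, unadjusted p 0.000739). The 1-day change was 0.12 ± 0.06 (unadjusted p 0.0663), and the 10-day arrays were 0.18 ± 0.05 above the 1-day arrays (unadjusted p 0.00699). All adjusted p-values were 1 (limma). Leaving out each array in turn gave a 10-day change of 0.275 to 0.324. With the local background subtracted, the 1-day change turned to -0.281.
Fkbp4, or FKBP52, which binds Hsp90 and supports steroid receptors, was 10.09 and 10.24 in water, 10.27, 10.30 and 10.36 at 1 day, and 10.34, 10.35 and 10.36 at 10 days. The 10-day arrays were within a narrow band above both water arrays. The changes were 0.15 ± 0.05 (SE, 1.106-fold, unadjusted p 0.0236) and 0.18 ± 0.05 (1.136-fold, unadjusted p 0.00782), both with an adjusted p of 1. Without the control replicate 1, which was the lower of the water arrays, they were 0.0687 and 0.108, and with the local background subtracted they were 0.447 and 0.294.
Stip1, or Hop, which hands clients from Hsp70 to Hsp90, was 9.49 and 9.44 in water, 9.58, 9.54 and 9.47 at 1 day and 9.71, 9.43 and 9.53 at 10 days. The highest value was that of 10-day replicate 1, and the groups overlapped. Stub1, or CHIP, the ubiquitin ligase that tags chaperone clients, spread most in water, at 10.65 and 11.02, and gave 10.78, 10.84 and 10.81 and then 10.82, 10.85 and 10.68 under trehalose. Every trehalose array of Stub1 lay between the water values. Among the other co-chaperones, Ahsa1, which speeds the ATPase of Hsp90, was lower by 0.09 ± 0.05 (SE) at 10 days than at 1 day, and Ptges3, or p23, was lower by 0.07 ± 0.04. Neither had an unadjusted p under the threshold of 0.05 (0.12 and 0.122, limma). St13 and Cdc37 differed from water by 0.07 and 0.06 at 10 days.

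Of the BAG co-chaperones, which release clients from Hsp70, Bag1 was lower. It was 10.59 and 10.43 in water, 10.40, 10.40 and 10.33 at 1 day, and 10.53, 10.18 and 10.17 at 10 days. All 3 of the 1-day arrays were under both water arrays, but 10-day replicate 1 was between them. The changes were -0.13 ± 0.11 (SE) and -0.21 ± 0.11, the latter with an unadjusted p of 0.0893. The 10-day change was -0.135 without control replicate 1 and -0.333 without 10-day replicate 1. Bag3, which links Hsp70 to selective autophagy, was 6.70 and 6.77 in water, 6.81, 6.71 and 6.73 at 1 day and 6.71, 6.64 and 7.19 at 10 days. The value of 10-day replicate 3 stood 0.373 above the next array, and the other 10-day arrays were within or below the water range. Its 10-day change was 0.11 ± 0.15 (SE), and -0.0601 without that array. Bag5 was 0.04 above water at 10 days. Hsf2, the heat shock factor with a probe here, was 6.03 and 6.05 in water, 6.15, 6.07 and 6.03 at 1 day and 6.05, 6.11 and 5.99 at 10 days, with overlap, and differed from water by 0.04 and 0.01.

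Hspd1 and Hspe1, the mitochondrial chaperonin and its lid, share the stretch printed above. Hspd1 was 11.04 and 11.10 in water, 11.24, 11.11 and 11.14 at 1 day, and 10.96, 11.07 and 11.33 at 10 days. Hspe1 was 9.04 and 9.12, then 9.14, 9.07 and 9.30, then 8.85, 9.08 and 9.29. For both genes the lowest and the highest 10-day arrays were replicates 1 and 3. Across the 8 arrays, Pearson's r was 0.816, with an exact two-sided permutation p of 0.0153. By ranks, Spearman's rho was 0.857, with an exact p of 0.0107. Over the 27 member relations computed, their Benjamini-Hochberg adjusted values were 0.299 and 0.189. Without the 2 arrays farthest from the median of Hspd1, which were 10-day replicates 1 and 3, r was 0.492, so the relation rests largely on those arrays. After removal of the group means and the slope described below, r was 0.846.

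**Figure D4:**
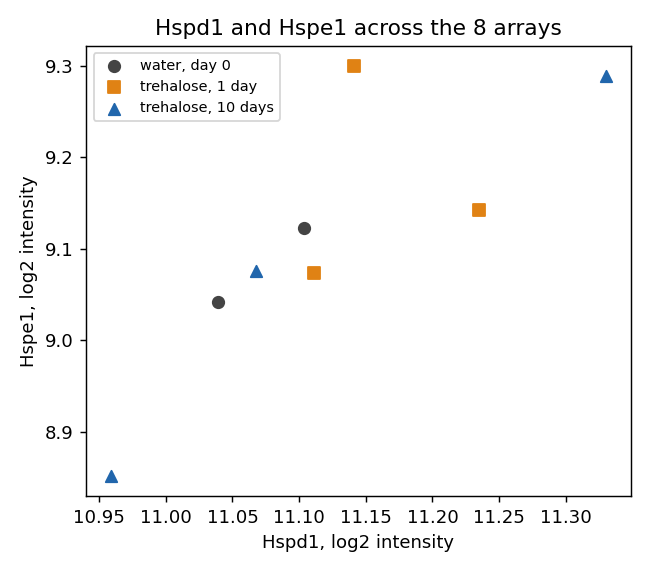
Log2 intensity of Hspe1 against Hspd1 in the 8 arrays (circles, water; squares, 1 day; triangles, 10 days). The 10-day arrays span the plot, and r over all 8 arrays was 0.816.

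The CCT subunits assemble into a double ring in equal numbers. All 7 measured subunits lay above water at 10 days, by a median of 0.0686 and with Cct4 at 0.00, and 5 did at 1 day. With the local background subtracted, 3 did at 10 days. Cct5 was 10.50 and 10.22 in water, 10.73, 10.78 and 10.38 at 1 day, and 10.78, 10.68 and 10.45 at 10 days. In each trehalose group, 1 array lay between the water values and the others above. Its changes of 0.27 ± 0.15 (SE) and 0.28 ± 0.15 were among the widest in error (unadjusted p 0.103 and 0.0927, adjusted p 1 by limma). They were 0.133 and 0.144 without control replicate 2, and 0.404 and 0.414 without control replicate 1.
Cct8 was 10.56 and 10.64 in water, 10.77, 10.84 and 10.58 at 1 day, and 10.96, 10.71 and 10.70 at 10 days, with the 10-day arrays all above water. Its 10-day change was 0.19 ± 0.10 (SE). Cct2 was 10.48 and 10.41, then 10.51, 10.37 and 10.38, then 10.59, 10.46 and 10.51, with overlap throughout. The 10-day arrays of Cct2 were 0.10 ± 0.05 above the 1-day arrays (unadjusted p 0.101), but this difference turned to -0.963 with the local background subtracted, and the 10-day difference from water to -1.21. Cct3, Cct6a and Cct7 differed from water by 0.01, 0.07 and 0.03 at 10 days. At 1 day Cct6a gave 9.74, 9.78 and 9.76 against 9.59 and 9.76 in water. The 21 pairs of the 7 subunits correlated across arrays with a median r of 0.108 and a range of -0.706 to 0.764, and 13 were positive. By Pearson's r only Cct5 with Cct8 had an unadjusted exact permutation p under 0.05 (0.0258). By ranks, Cct5 with Cct8 (rho 0.833, exact p 0.0154), Cct6a with Cct7 (rho 0.81, exact p 0.0218) and Cct3 with Cct4 (rho -0.762, exact p 0.0368) did, and after adjustment no pair did by either measure. Of the other relations, Hspa8 with its partner Dnaja1 gave r 0.655 and rho 0.619 (exact permutation p 0.0766 and 0.115), and r 0.328 without the 2 farthest arrays. Hsp90aa1 with Stip1 gave r 0.631 and rho 0.452 (exact permutation p 0.0743 and 0.267), and r 0.656 without 2 arrays. Hspb8 with Bag3 gave r 0.0621 and rho 0.667 (exact permutation p 0.887 and 0.0831), and r 0.00886 without 2 arrays. None of these had an adjusted p under 0.299.

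The sample descriptions open with a number from 1 to 8, and 1, 4 and 7 belonged to the 1-day arrays, 2, 5 and 8 to the 10-day arrays and 3 and 6 to water. The labels do not say what it stands for. The main axis of the arrays (25.3% of the variance) correlated with it at an absolute r of 0.932 across the 8 arrays. In a fit with both group and number, 10 of 38 member probes (26.3%, 5 upward and 5 downward) had a slope with an unadjusted p under 0.05, against 10.9% of all probes. No probe passed the adjusted threshold, and the lowest adjusted p of a member was 0.2 for Dnaja1 (limma, Benjamini-Hochberg). Over the 7 steps from the lowest to the highest number, Dnaja1 was higher by 0.45, Hspa8 by 0.34, Hspe1 by 0.33 and Dnajb4 by 0.32 on the log2 scale. Cct5 was lower over the same steps by 0.42 and Bag1 by 0.27. For Hspa8 the span was wider than its 10-day difference from water of 0.18, and so it was for Dnaja1, Hspe1 and Dnajb4. With the number in the model, 7 of 38 member probes had an unadjusted p under 0.05 at 10 days, against 2.5% of all probes. They were Chordc1, Hspa4, Cct5, Fkbp4, Cct8, Bag1 and Dnajb1. The change of Chordc1 was then 0.292 and that of Hspa4 0.28, close to the values without the number, and no adjusted p passed.

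**Figure D5:**
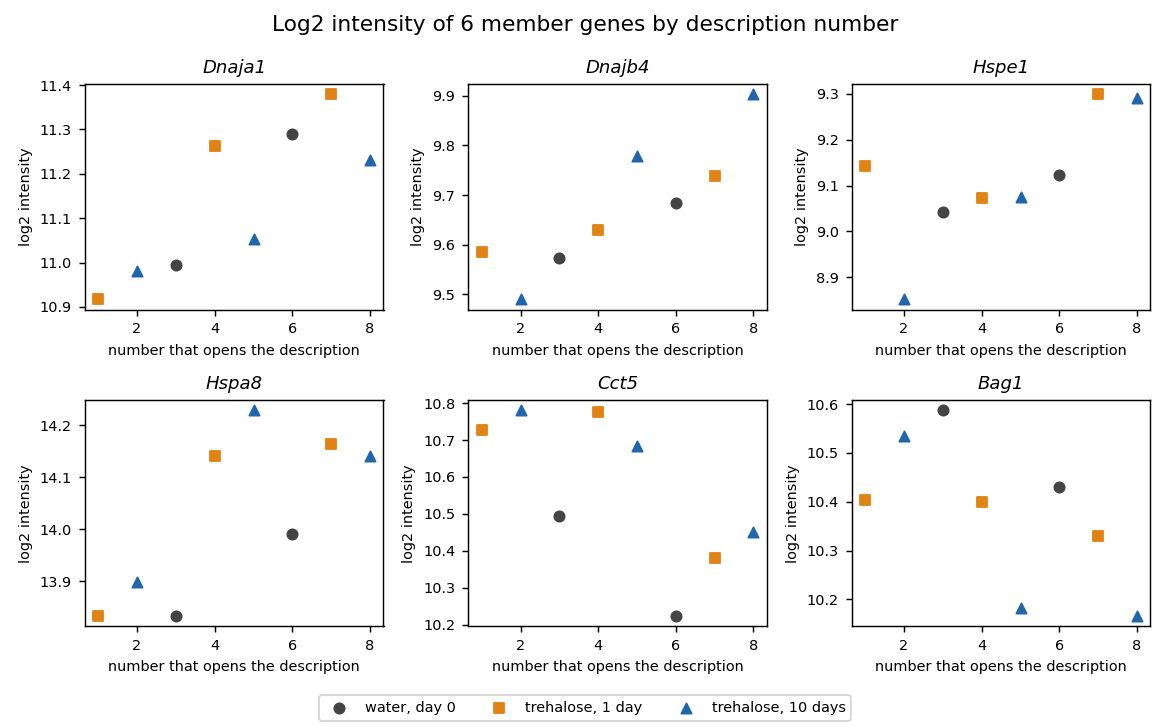
Log2 intensity of Dnaja1, Dnajb4, Hspe1, Hspa8, Cct5 and Bag1 against the number at the start of the sample description (circles, water; squares, 1 day; triangles, 10 days; each panel has its own axis). Dnaja1, Dnajb4, Hspe1 and Hspa8 are higher at higher numbers, and Cct5 and Bag1 are lower, over the 8 arrays.

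The same arrays carried probes for 80 of 84 other chaperone genes, among them further Hsp70s, small heat shock proteins, J-proteins, co-chaperones, prefoldin and tubulin cofactors. Of these probes, 83 were tested, and a Dnajb8 probe was not. At 10 days 40 were higher than water and 43 lower, with a median of -0.00401. At 1 day 44 were higher and 39 lower, with a median of 0.0041. None passed the adjusted threshold. Those with the lowest unadjusted p were Bag4 (-0.17), Pdcl (-0.19) and 1 Dnajc14 probe (-0.15) at 1 day. At 10 days they were Hspb7 (-0.19), Bag6 (0.11) and Grpel2 (0.08). Between the trehalose groups they were Dnajc7 (0.24), Hspb6 (-0.20) and Bag4 (0.12). For either time against water they were Hspb7 (-0.16), Dnajc14 (-0.12) and Tbce (0.12). Hspa1a, the heat-inducible Hsp70, was chosen for mention after its values were seen and differed from water by -0.05 and -0.12 (SE 0.115, limma). Because Hspa1b is nearly identical, its transcript may contribute to that probe.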

How the data were processed

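Total RNA from brain was hybridised to 1-colour arrays, and the deposited scanner tables give each spot's intensity on a linear scale, with no normalization per the file headers. The authors' deposited table holds normalized intensities with a median of 25 on each array, whose method is not given in the sources used here; it was an alternative. Intensities (27456 spots, 2736 of them blank) were corrected with normexp (offset 50), quantile normalized and taken to log2. Probes of at least 2 arrays above the mean of the blanks plus 2 SD were kept (21583 of 23473). Differences are on this log2 scale. The deposited probe annotation gave 1 symbol to 20690 probes.

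One limma fit (limma 3.58.1, R 4.3.3) held all 8 arrays in 3 groups, with Benjamini-Hochberg adjustment over all probes and a threshold of 0.05. The fit was tested on simulated data whose changes were larger than those of any member in the main fit, so that test does not cover changes of the size seen here. A further fit added the description number. Correlations used exact permutation (Python 3.11.15, scipy 1.17.1), and figures matplotlib 3.10.9. Values per array were given for class anchors and for the 6 member probes with the lowest p in each comparison, except Ahsa1 and Ptges3. Those of Cct8, Cct6a and Hsf2 were given outside this rule. Of the other chaperones, the 3 with the lowest p in each comparison were named. The members and lists were chosen with earlier results of these data known. Alternatives covered background, offset, normalization, filters, array weights, a replicate block, each array left out and the authors' table. Depth is limited by the number of arrays.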

Additional observations from a re-analysis of the deposited data

How the results depend on the processing

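No member probe was called at an adjusted p of 0.05 under any of the 13 alternatives in the comparisons of single groups or the 12 for either time. Under these alternatives, median log2 changes of the member probes moved beyond the largest within-group SD of the array medians (0.0408) in these cases: with the authors' table to 0.0929 at 10 days and to 0.114 for 10 days against 1 day, and with the local background column to -0.0681 for 10 days against 1 day and to 0.0718 for either time. Leaving out control replicate 2 also moved the median for either time beyond that SD, from 0.025 to 0.0689. Dnajb1 at 1 day turned to -0.0276 with the local background column, which also turned the sign of smaller 10-day changes such as those of Dnaja1 (to 0.53) and Hspd1 (to -0.322). The cause was not tested. Leaving out each array in turn gave medians of 0.00277 to 0.0642 at 1 day, 0.0339 to 0.0809 at 10 days, 0.00286 to 0.0338 for 10 days against 1 day and 0.0201 to 0.0689 for either time. Arrays with the same replicate number deviated together with r of -0.0247 to 0.263 over 7 pairs and those with other numbers with r of -0.315 to 0.213 over 14, and 6 of the 7 same-number pairs were over 0.1. Of the 8 arrays, 7 correlated best with an array of their own number. The group means were removed first, so the 2 water arrays deviated as exact mirror images. A positive r for 1 of them forces a negative r for the other, and these counts are not independent evidence of a pairing. The labels do not link the numbers and 1 same-number pair was not positive, so a pairing was not established. The replicate numbers follow the description numbers. With a replicate block the medians were 0.0189 at 1 day, 0.0387 at 10 days, 0.0264 for 10 days against 1 day and 0.0203 for either time. The split for either time was then 25 higher and 13 lower in place of 30 and 8, with 48.8% of all probes higher. Unadjusted p under 0.05 (limma) were then reached by 3, 5, 3 and 6 members in the same order, in place of 3, 4, 1 and 4. The shares of all probes also rose, to 4.31%, 2.83%, 5.27% and 3.24% from 3.65%, 2.00%, 3.50% and 2.63%. No member was called.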

Other observations

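Where the highest and lowest values of the members fell differed between arrays. The array of 10-day replicate 1 held the highest value of 11 of 38 member probes (28.9%, against 13.5% of all probes), among them Hspa4, Hspa4l and Hsp90aa1. In the same way, 10-day replicate 3 held the highest value of 8 (21.1%, against 15.2%), which were Fkbp4, Chordc1, St13, Hspd1, Dnajb4, Bag3, Bag5 and Hsph1. Control replicate 1 held the lowest value of 10 (26.3%, against 12.7%). The 2 Cryab probes correlated across the 8 arrays with r 0.694 and rho 0.786 (exact permutation p 0.0474 and 0.0279, adjusted 0.299 and 0.189 over 27 relations), and r was 0.692 without the 2 water arrays. The 2 Dnajb6 probes correlated with r 0.5 and rho 0.19 (exact permutation p 0.211 and 0.665).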
